A study of Rattus norvegicus with 6 samples.

Results

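Protein import and the mitochondrial ribosome were examined in H9c2, a rat myoblast line that was derived from embryonic heart, through 82 genes named by symbol: 19 import genes (Timm and Tomm symbols followed by a digit) and 63 ribosome genes (40 Mrpl and 23 Mrps), out of 13823 rat coding genes with a usable probe on the array. Each was represented by its only coding probe, and that probe by 1 spot per array. The H/R group held 3 samples of cells that spent 1 h in 1% oxygen, 5% carbon dioxide and 94% nitrogen and then 3 h back at normal oxygen, in medium without serum or glucose. The control group held 3 samples of cells labelled only as controls; the labels give neither their oxygen nor their medium during the experiment, so low oxygen and the loss of serum and glucose cannot be told apart. Before the experiment, all cells grew with 10% serum and glucose at 4500 mg/L. The line is clonal, and the growth labels name no differentiation step. The question was which of these mRNAs differ in level after H/R, and whether import and ribosome genes differ alike.

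Most mitochondrial proteins are encoded in the nucleus and enter the organelle as unfolded precursors. They cross the outer membrane through the TOM complex. From there, precursors with a presequence pass the inner membrane through TIM23, while carrier proteins are escorted by small TIM chaperones to TIM22. Inside, the mitochondrial ribosome translates the few respiratory chain subunits that mitochondrial DNA encodes, and all of its own proteins arrive by this import route. The large subunit carries the Mrpl proteins and the small subunit most Mrps proteins. Heart muscle is rich in mitochondria, and its oxidative capacity rests on both systems.

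In each group, replicates 2 and 3 carried the same slide position and looked like 2 scans of 1 array: 36 spots with an uneven local background recurred in both, whereas none of the remaining 13 file pairs shared more than 1. They were averaged, which leaves n = 2 arrays per group (array 1 is replicate 1, array 2 is replicates 2 and 3). No label ties a file to a separate culture, so the p-values reflect array-to-array spread alone, and that spread may be technical. Between 58.4% and 71.1% of the 42136 spots per scan were well above background and 0 were saturated; precision is limited by how few arrays there are. Myoblast genes were present: of 12 such markers on the array, 10 were well above background in all 6 scans, among them Vim, Des, Myod1 and Myog; Myod1 was itself lower in H/R (-1.48 ± 0.18, limma adjusted p = 0.00814). Of 6 markers of brain cortex, which a protocol text names as an RNA source, the neuronal genes Rbfox3, Slc17a7 and Gad1 were never well above background, Syt1 was so in 1 control scan, and the glial genes Gfap and Mbp were so in all 6 scans. Neither of those glial genes passed (-0.07 ± 0.11, limma adjusted p = 0.686, and 0.45 ± 0.13, adjusted p = 0.0650), and the list summed to 0.167 to 0.171 times the array's 75th percentile in H/R scans and 0.150 to 0.168 in control scans. Of the 7 leukocyte markers, Ptprc, Adgre1 and Itgam were never well above background, Mrc1 was so in 2 H/R scans, and Cd68, Csf1r and Aif1 were so in all 6 scans, with 0 of those 3 past the threshold (1 at an unadjusted p under 0.05). The summed signal of the leukocyte list, in the same multiples, was 0.330 to 0.382 in H/R scans and 0.292 to 0.454 in control scans. That of the myoblast list was 37.7 to 39.97 in H/R scans and 31.2 to 36.2 in control scans. Vim alone gave 20.33 to 20.47 of it in H/R scans and 14.05 to 17.12 in control scans. Of its 11 tested genes, 4 rose (Tnnt2, Myh3, Tnnt1 and Chrna1) and 1 fell (Myod1). Chrna1 was dim and well above background in H/R scans only, so it was tested only through the group where it is high. In the endothelial list, Pecam1 and Cdh5 were never well above background, and Tek rose (1.11 ± 0.13 on the log2 scale, limma adjusted p = 0.00848). Emcn did not pass though all its H/R scans lay above the control scans (0.32 ± 0.09, limma adjusted p = 0.0671). Neither Tek nor Emcn exceeded 0.112 times the 75th percentile in any scan. The endothelial list summed to 0.119 to 0.140 in H/R scans and 0.0689 to 0.0732 in control scans. Of 7 cardiomyocyte markers, 6 were well above background in all 6 scans, and the list summed to 2.64 to 3.07 in H/R scans and 2.44 to 2.67 in control scans. Of those 6, Myh6 rose (0.99 ± 0.09, adjusted p = 0.00527), and Tnni3 did not pass though all its H/R scans lay above the control scans (0.78 ± 0.29, adjusted p = 0.115). Gata4 went the other way without passing, with all its H/R scans below the control scans (-0.35 ± 0.10, limma adjusted p = 0.0617). In that list 3 changes were above 0 and 3 below. The part of cell makeup in the results below was not tested, and in bulk samples fewer cells of a type and less RNA per cell cannot be told apart.

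Import genes lay mostly below their control level after H/R, with 16 of 18 changes under 0, as were 34 of 56 among ribosome genes and 4276 of 10001 among all coding genes tested. Most genes of both kinds did not pass the test, namely 13 of 18 import genes and 50 of 56 ribosome genes. Of 18 import genes tested, 5 fell and 0 rose (limma, Benjamini-Hochberg adjusted over all 15899 probes tested, threshold 0.05, which 23.7% of them passed), with a median change of -0.32 on the log2 scale. The 5 were Timm8a1, Timm21, Tomm70, Timm10 and Tomm34. Of 56 ribosome genes tested, 6 fell and 0 rose, with a median of -0.06. They were Mrpl12, Mrpl57, Mrpl42 and Mrpl16 of the large subunit and Mrps18a and Mrps27 by their small-subunit names. Over all 10001 coding genes tested, 9.62% fell, 16.2% rose and 25.8% changed either way, with a median of 0.07. Against that background, 27.8% of the import genes and 10.7% of the ribosome genes fell. The ribosome share lies near the background share of falls and is not a result about these genes. No member changed by as much as 2-fold: fitted values ran between 58.4% and 136% of the control signal.

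A gene was tested if either group had its probe well above background in each of its 3 scans, which 74 of the 82 passed; 71 of them were well above background in all 6 scans. The 8 genes left out, namely Timm8a2, Mrpl3, Mrpl15, Mrpl30, Mrpl45, Mrpl48, Mrps5 and Mrps23, were well above background in none of the 6 scans, so no change is given for them. The falls rest on few arrays. With normexp background correction 0 members passed in either direction (6 at an unadjusted p under 0.05), and without the filter on dim probes 0 passed (14 at an unadjusted p under 0.05), against 18 at an unadjusted p under 0.05 in the fit reported. Over the whole array, 0 of 15899 probes passed with normexp and 594 of 24578 without that filter, against 3769 of 15899 in the fit reported. Leaving out H/R array 1, or H/R array 2 with both its scans, left 0 calls; leaving out control array 1 left 2 and control array 2 left 5, of which 1 was among the 11 as reported. Each of these fits sets 1 array against 2, and over the whole array, too, fewer probes passed in each than in the fit reported.

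**Figure D1:**
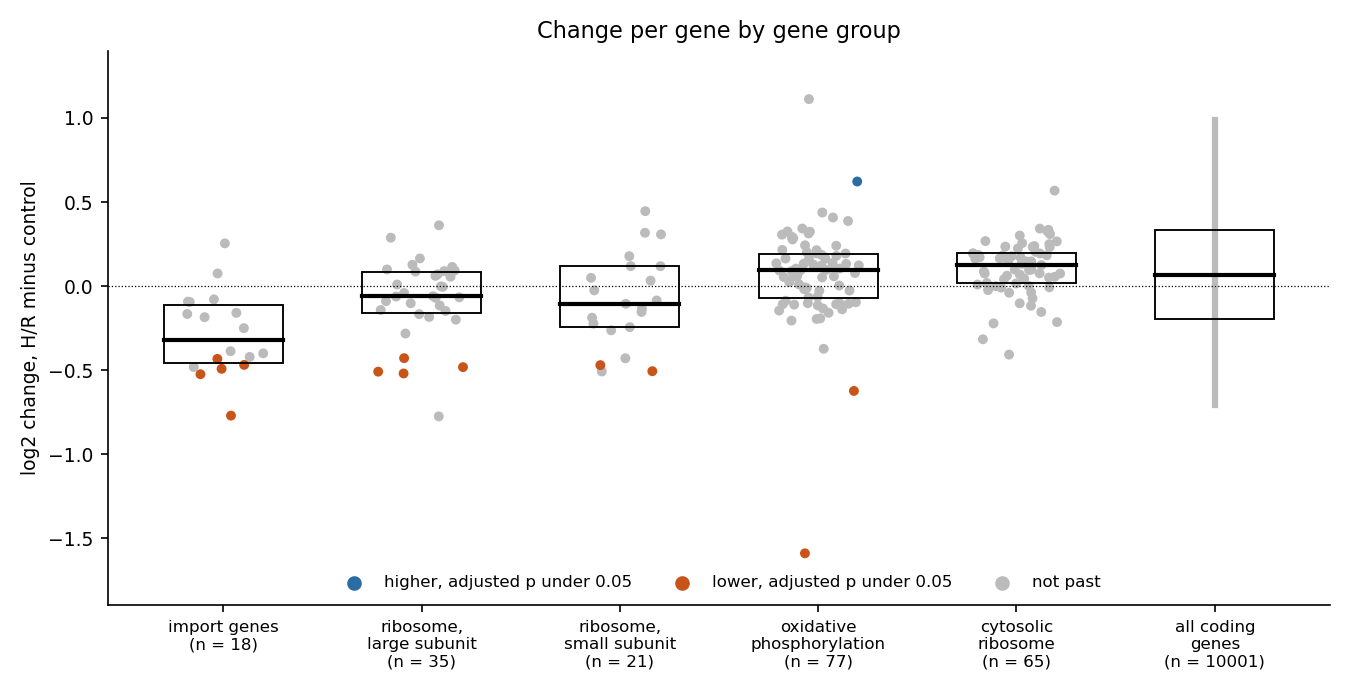
Change of each tested gene, H/R minus control on the log2 scale, by gene group, with the number of genes under each name. Boxes span the quartiles with the median as a thick line, points are genes, and for all coding genes the grey bar spans the 5th to 95th percentile. The import genes' median of -0.32 lies below the medians of the large subunit (-0.06), the small subunit (-0.11) and all coding genes (0.07).

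In the outer membrane, 1 of 6 TOM genes fell. Tomm70, which encodes the receptor for carrier precursors and other internally targeted proteins, had 1.97, 2.04 and 2.07 times the 75th percentile in H/R replicates 1 to 3, against 2.58, 3.15 and 3.05 in control replicates 1 to 3. All H/R scans lay below all control scans. Tomm70 fell by 0.49 ± 0.12 in log2 units (± is limma's moderated SE throughout, with n = 2 arrays in each group, and adjusted p was 0.0481), but its adjusted p was 0.0517 without H/R replicate 2 and 0.0508 without control replicate 3.

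The other receptors and the channel did not pass. Tomm20, which encodes the presequence receptor, had 3.998, 4.69 and 4.78 times the 75th percentile in H/R scans and 5.00, 5.28 and 5.44 in control scans. Those groups did not overlap, and the difference of -0.25 ± 0.12 had an adjusted p of 0.199. Tomm22, which encodes the central receptor that organises the complex, differed by -0.09 ± 0.09, with a 95% interval of half-width 0.23. Tomm7, which encodes a small subunit involved in assembly of the complex, differed by -0.08 ± 0.14.

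Tomm40, which encodes the channel-forming protein, was uneven among control arrays. Its signal was 0.0889, 0.0803 and 0.0762 times the 75th percentile in H/R scans, against 0.199, 0.0675 and 0.0690 in control scans. Control replicate 1 was high and the other 2 control scans lay below all H/R scans. The difference of -0.48 ± 0.51 (adjusted p = 0.517) became 0.29 without control replicate 1 and -1.25 without control array 2. Tomm40l, which encodes a paralogue of the channel, had 0.0697, 0.0725 and 0.0704 in H/R scans and 0.0605, 0.0574 and 0.0583 in control scans. It was the only import gene whose H/R scans all lay above the control scans, by 0.25 ± 0.09 (adjusted p = 0.112). Outside the membrane, Tomm34, which encodes a cytosolic co-chaperone of precursor proteins, had 2.50, 2.65 and 2.62 in H/R scans, against 3.38, 3.57 and 3.53 in control scans. It fell by 0.43 ± 0.10 (adjusted p = 0.0349).

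In the inner membrane, 1 of 5 TIM23 genes fell. Timm21, which encodes the subunit that links TIM23 to the outer-membrane translocase, had 2.36, 2.36 and 2.35 times the 75th percentile in H/R scans, against 3.36, 3.41 and 3.43 in control scans. Scans of a group differed little and the groups lay far apart. Its level fell by 0.52 ± 0.09 (adjusted p = 0.0191), to 69.5% of control.

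Timm44, which encodes the anchor of the import motor at the channel exit, had 0.853, 0.821 and 0.823 times the 75th percentile in H/R scans, against 1.04, 1.22 and 1.21 in control scans. Its difference of -0.42 ± 0.12 missed the threshold (adjusted p = 0.0591). Timm17a, which encodes a structural subunit of the channel, had 7.67, 7.81 and 7.76 in H/R scans and 9.25, 11.02 and 11.05 in control scans. In both genes all H/R scans lay below all control scans. Timm17a differed by -0.39 ± 0.12 (adjusted p = 0.0800), whereas its paralogue Timm17b differed by 0.07 ± 0.13 (adjusted p = 0.701), with H/R replicate 1 above and H/R replicates 2 and 3 below the control scans. The difference between the paralogues was not tested. Timm23, which encodes the presequence translocase subunit that names the complex, differed by -0.09 ± 0.10 (adjusted p = 0.542). The current rat annotation lists 9 pseudogenes named after Timm23, whose RNA, if made, could reach the same probe. Timm29, which encodes a subunit of the carrier translocase TIM22 known from human cells, differed by -0.17 ± 0.11 (adjusted p = 0.321) at a low signal. After normexp correction it differed by 1.01, in a fit whose median over all probes was 0.335.

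All 5 small TIM genes tested had every H/R scan below every control scan, and 2 of them fell. Over all coding genes tested, 27.9% had all H/R scans below all control scans, 38.2% had them above, and 66.1% were apart either way; 12 of 18 import genes lay below and 1 above. The proteins of Timm8a1 and Timm13 form one chaperone ring of the intermembrane space, and Timm10 belongs to the other. Timm8a1, the counterpart of the human deafness-dystonia gene, had 3.17, 2.86 and 2.85 times the 75th percentile in H/R scans, against 4.85, 5.35 and 5.50 in control scans. It fell by 0.77 ± 0.11 (adjusted p = 0.0136), to 58.6% of control, and was the largest fall among the members past the threshold. Timm10 had 3.64, 3.72 and 3.74 in H/R scans, against 4.81, 5.39 and 5.42 in control scans, and fell by 0.47 ± 0.10 (adjusted p = 0.0360).

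Timm13 had 1.21, 1.06 and 1.09 times the 75th percentile in H/R scans, against 1.44, 1.58 and 1.57 in control scans. Its difference of -0.40 ± 0.11 missed the threshold (adjusted p = 0.0634). Timm10b, which encodes a small TIM bound to the carrier translocase, and Timm8b differed by -0.19 ± 0.12 and -0.16 ± 0.12 (adjusted p = 0.321 and 0.357). In these 2 genes control replicate 1 lay closest to the H/R scans. Median scaling of the arrays, which shifts all changes downward, brought Timm13, Timm17a and Timm44 past the threshold (adjusted p = 0.0363, 0.0429 and 0.0335).

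**Figure D2:**
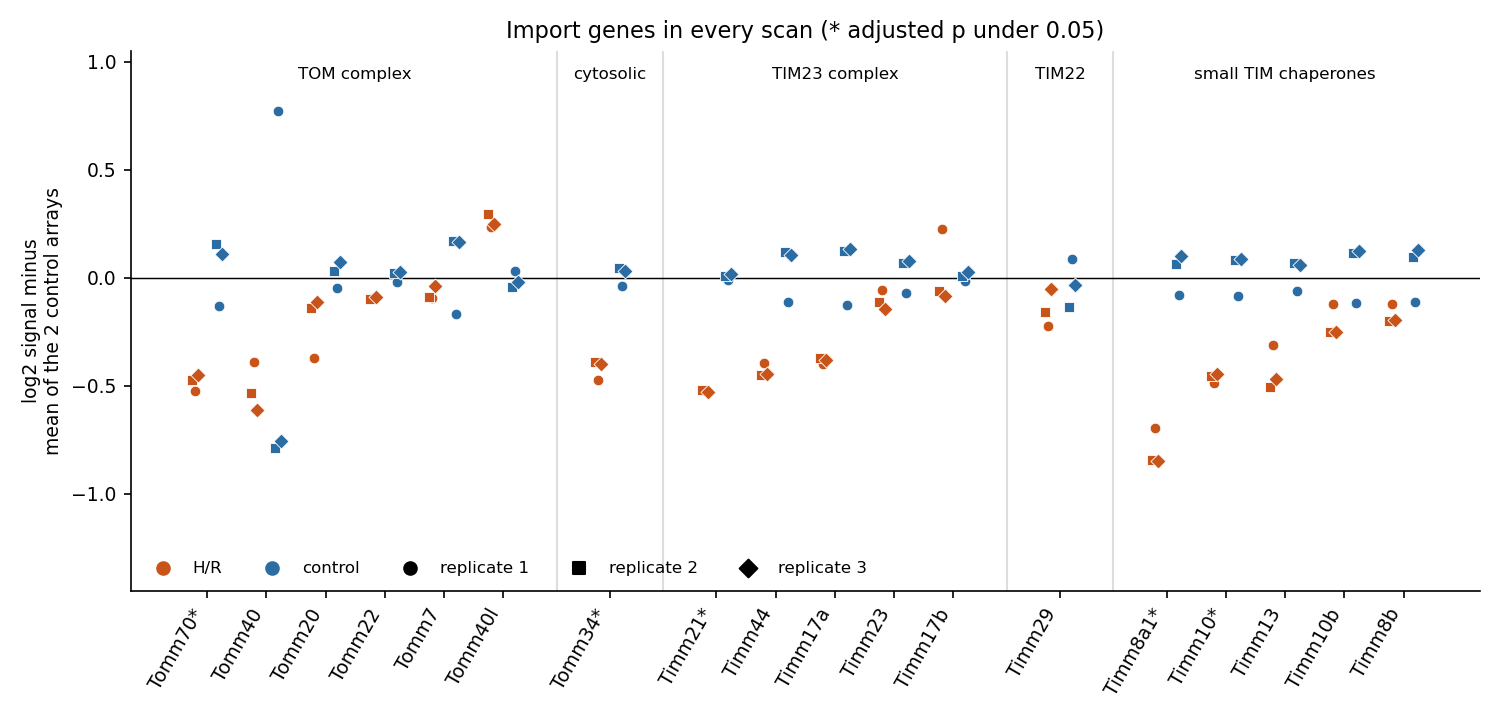
Log2 signal of the 18 tested import genes in every scan, relative to the mean of the 2 control arrays of the same gene; H/R scans are drawn left of control scans and replicates 2 and 3 are scans of 1 array. Stars mark the 5 genes past the threshold. In 12 genes all H/R scans lie below all control scans, in Tomm40l they lie above, and in Tomm40 control replicate 1 stands apart from the other control scans.

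In the large ribosomal subunit, 4 of 35 genes tested fell (11.4%, near the 9.62% of all coding genes) and 0 rose, with a median of -0.06. Mrpl42, which encodes a mitochondria-specific protein of the subunit, had 0.686, 0.676 and 0.657 times the 75th percentile in H/R scans, against 0.9754, 0.927 and 0.903 in control scans. It fell by 0.48 ± 0.10 (adjusted p = 0.0266). Mrpl16, which encodes a conserved protein near the catalytic centre, had 0.569, 0.629 and 0.631 in H/R scans, against 0.784, 0.816 and 0.842 in control scans. It fell by 0.43 ± 0.10 (adjusted p = 0.0438). In both genes the groups did not overlap.

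The other 2 falls were measured at dim spots. Mrpl12, which encodes a stalk protein that in human cells also binds the mitochondrial RNA polymerase, had 0.0103, 0.0110 and 0.0119 times the 75th percentile in H/R scans, against 0.0154, 0.0153 and 0.0163 in control scans. It fell by 0.52 ± 0.10 (adjusted p = 0.0260). Mrpl57, which encodes a small mitochondria-specific subunit, had 0.0670, 0.0709 and 0.0710 in H/R scans, against 0.0993, 0.0968 and 0.0971 in control scans. It fell by 0.51 ± 0.09 (adjusted p = 0.0228). After normexp correction, which treats the background of dim spots differently, the changes of Mrpl12 and Mrpl57 turned to 0.98 and 0.33. In that fit the median over all probes was 0.335, near the value of Mrpl57, and 0 of 15899 probes passed. The sign of both changes depends on that step.

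The remaining 31 large-subunit genes did not pass, with changes between -0.78 and 0.36 and 14 of them above 0. Mrpl13, among the 4 members of highest signal, differed by 0.13 ± 0.11 (adjusted p = 0.446). Mrpl14 and Mrpl44 had the changes nearest 0, at -0.0017 ± 0.12 and -0.0049 ± 0.12; their 95% intervals reach 0.32 and 0.31 on either side. Mrpl47, picked after its values were seen, had the lowest change of all members, -0.78 ± 0.39 (adjusted p = 0.207). Its signal was 0.256, 0.261 and 0.271 in H/R scans, against 0.673, 0.295 and 0.299 in control scans. As in Tomm40, control replicate 1 was high; without it the difference was -0.18 (adjusted p = 0.354), and without control array 2 it was -1.37 (adjusted p = 0.0155).

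By their names, 2 of 21 small-subunit genes fell (9.52%, near the 9.62% of all coding genes) and 0 rose, with a median of -0.11. Mrps27, which encodes a protein of the small subunit with pentatricopeptide repeats, had 0.521, 0.525 and 0.525 times the 75th percentile in H/R scans, against 0.730, 0.728 and 0.711 in control scans. It fell by 0.47 ± 0.09 (adjusted p = 0.0248). Mrps18a had 0.773, 0.724 and 0.743 in H/R scans, against 1.12, 1.03 and 1.02 in control scans, and fell by 0.51 ± 0.10 (adjusted p = 0.0278). Both pairs of groups were clearly apart. Despite its symbol, the Mrps18a protein sits in the large subunit in mammalian ribosome structures, as does that of Mrps30.

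Mammals keep 3 paralogues of this bacterial protein, and the others were measured too. Mrps18c differed by -0.43 ± 0.11, which missed the threshold (adjusted p = 0.0507), with all H/R scans below all control scans. Mrps18b differed by -0.26 ± 0.11 (adjusted p = 0.151). Among the genes that did not pass, changes ran between -0.51 and 0.45 and 8 of 19 were above 0. Mrps24, the member of highest signal, differed by 0.12 ± 0.11 (adjusted p = 0.466). Mrps33, picked after its values were seen, had the highest change of all members, 0.45 ± 0.19 (adjusted p = 0.151). Its signal was 6.001, 5.56 and 5.57 in H/R scans and 3.56, 5.12 and 4.99 in control scans, with control replicate 1 low, and the difference was 0.19 without that replicate.

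**Figure D3:**
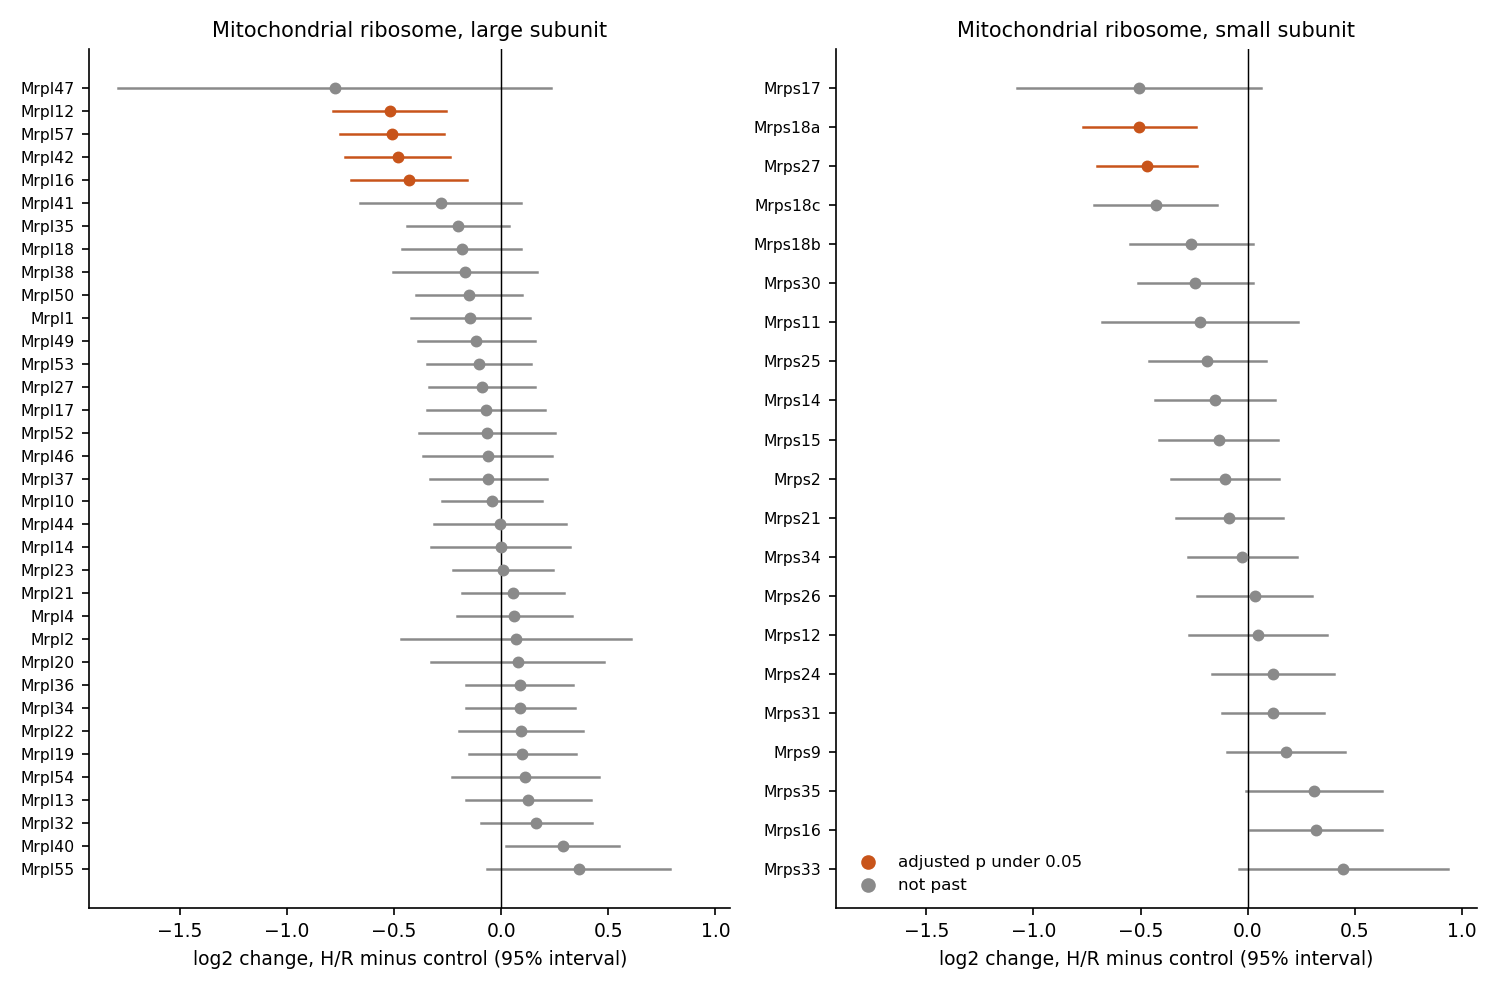
Change of each tested ribosome gene, H/R minus control on the log2 scale, ranked from low to high, with the 95% interval of the fit, not adjusted for the number of genes; the large subunit is on the left and the Mrps genes on the right. Coloured points are the 6 genes past the threshold, all between -0.52 and -0.43. Most other intervals include 0, and the widest belong to Mrpl47 and to Mrps17.

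Side by side, the import genes' median change was lower than that of the ribosome genes by 0.25 on the log2 scale. After each gene was centred on the mean of its 2 group means, the median import gene stood at -0.15, -0.16 and -0.17 in H/R replicates 1 to 3, against 0.09, 0.21 and 0.21 in control replicates 1 to 3. The median ribosome gene stood at -0.01, -0.07 and -0.06 in H/R scans, against -0.02, 0.05 and 0.06 in control scans. For the import genes the groups were apart in every scan, and for the ribosome genes control replicate 1 fell among the H/R scans. The difference of medians lay between -0.31 and -0.16 under all alternatives run and did not change sign. These counts and medians describe the lists; no test of the difference between them was made. Of 56 ribosome genes, 40 had a 95% interval that lay wholly within a 1.5-fold change either way and 54 within a 2-fold change, against 9 and 16 of 18 import genes.

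Related gene groups were read in the same way, also without a test between lists. Of 77 genes with oxidative phosphorylation symbols, which include assembly factors, 2 fell and 1 rose, with a median of 0.09. That is 3.9% changed either way, below the 25.8% of all coding genes. The falls were in Ndufa4 (-0.62, adjusted p = 0.0244) and Ndufa7 (-1.59, adjusted p = 0.0334), and Ndufaf7, a complex I assembly factor, rose (0.62, adjusted p = 0.0171). Of 65 genes for proteins of the cytosolic ribosome, 0 fell and 0 rose (limma, 6 at an unadjusted p under 0.05), with a median of 0.12. The import genes' median of -0.32 and the mitochondrial ribosome genes' median of -0.06 both lay below those values. The groups also differed in brightness. Their median log2 signal was 3.525 for oxidative phosphorylation and 4.955 for the cytosolic ribosome, against 1.774 for import and 1.475 for mitochondrial ribosome genes.

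Genes that work with the members but carry other names were taken from lists. Of 19 other import genes tested (25 listed), 0 fell and 2 rose (10.5%, below the 16.2% of all coding genes that rose), with a median of -0.03. The 2 were Mipep, which encodes a peptidase that trims imported precursors (0.42 ± 0.10, adjusted p = 0.0466), and Timmdc1, which encodes an assembly factor of complex I related to the TIM proteins (0.45 ± 0.09, adjusted p = 0.0299). Of 21 tested ribosomal proteins with other names and ribosome assembly factors, 0 fell and 0 rose (limma, 6 at an unadjusted p under 0.05), with a median of -0.08.

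Of 20 tested genes for mitochondrial translation factors and aminoacyl-tRNA synthetases, 1 fell (5.0%, below the 9.62% of all coding genes) and 0 rose. That gene was Ears2, which encodes the glutamyl-tRNA synthetase (-0.51 ± 0.09, adjusted p = 0.0231). Of 15 tested genes for upkeep and transcription of mitochondrial DNA and their nuclear regulators, 3 fell (20.0%, against 9.62% of all coding genes) and 0 rose, with a median of -0.15. Polg, which encodes the catalytic subunit of the mitochondrial DNA polymerase, fell by 0.48 ± 0.10 (adjusted p = 0.0303). Twnk, which encodes the replicative helicase of mitochondria, fell by 0.55 ± 0.13 (adjusted p = 0.0423). Ppargc1b, which encodes a coactivator of mitochondrial biogenesis, fell by 0.56 ± 0.10 (adjusted p = 0.0209), at a dim spot. On the scale used for the members it had 0.0339, 0.0373 and 0.0361 in H/R scans, against 0.0531, 0.0512 and 0.0503 in control scans. It was dimmer than Mrpl57, whose change turned sign after normexp correction. Whether the fall of Ppargc1b depends on that step was not tested. Of 7 mitochondrial protease genes, 0 fell and 2 rose (28.6%, against 16.2% of all coding genes), namely Oma1, which encodes a stress-activated inner-membrane protease (0.49 ± 0.09, adjusted p = 0.0251), and Spg7, which encodes a subunit of the matrix-facing AAA protease (0.45 ± 0.11, adjusted p = 0.0433).

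The promoters of the members were searched for letters of known regulators of mitochondrial genes. Of the 82 members, 69 had a window in RefSeq's table for assembly GRCr8 (71 windows, since Mrpl14 and Mrps21 have 2), each covering 250 bases before and 50 after the annotated start. Exact matches on either strand were counted for 4 motifs: CACGTG (the E-box bound by MYC and related factors), GCATGCGC (a core of the NRF1 site), CCGGAAGT (an ETS site of the kind GABPA binds) and AAGATGGC (a YY1 site). No 2 of these motifs share letters in the windows printed here. NRF1, GABPA and YY1 are known regulators of nuclear genes for mitochondrial proteins.

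The ETS letters were in 35.3% of 17 import windows (6 windows) and 14.8% of 54 ribosome windows (8 windows). They were in 7.78% of the 8634 windows of all coding genes tested and 3.81% of all 33469 windows in the table. The import and ribosome windows include those of members that were not tested, such as Timm8a2, Mrpl3 and Mrpl48, which hold ETS letters. Among the other import genes with ETS letters, Timm10 and Tomm70 fell, while Timm10b, Timm23 and Tomm20 did not pass. The YY1 letters were in 5.88% of import and 22.2% of ribosome windows, against 4.95% of tested genes and 3.17% of all windows. Of the 14 YY1 matches in members, 10 lay after the annotated start. The NRF1 letters were in 5.88% of import and 9.26% of ribosome windows, against 4.71% and 2.47%. The E-box was in 11.8% of import and 11.1% of ribosome windows, against 8.78% and 6.42%. At least 1 of the 4 motifs was in 6 of the 9 windows of members that fell (66.7%). This compares with 23 of the 55 windows of members tested that did not pass (41.8%), 23.2% of tested genes and 22.2% of all coding genes that fell. Of the 9 windows, 3 held ETS letters, 3 YY1 letters, 2 an E-box and 0 the NRF1 letters. Of the 55 windows, 8, 9, 5 and 6 did so in that order. Mrpl16 and Tomm34 also fell but had no window. A link between motifs and falls was not tested. A window was counted once however many matches it held, and overlapping matches of the NRF1 letters on both strands count once there. A match is a string of letters and not evidence that a factor binds there.

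**Figure D4:**
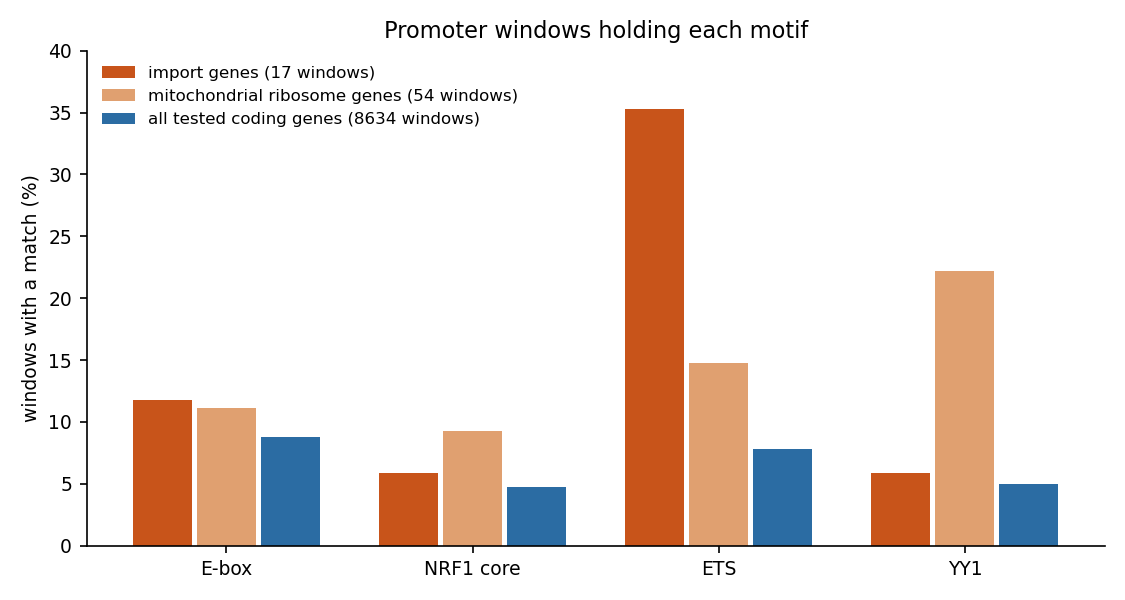
Share of promoter windows, in percent, that hold an exact match to each motif on either strand, for import genes, mitochondrial ribosome genes and all coding genes tested. The import and ribosome windows include those of members not tested. The ETS bar is highest for import genes (35.3%) and the YY1 bar for ribosome genes (22.2%), against 7.78% and 4.95% of all coding genes tested.

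The 6 windows of members that fell and held a motif are printed below, 5′ to 3′ on the gene's strand, because they set the falls beside the letters found; capitals mark the motif matches. In GRCr8 the printed windows lie at chrX:102015395-102015694 (minus strand) for Timm8a1, chr3:90314889-90315188 (plus strand) for Timm10, chr11:56886227-56886526 (minus strand) for Tomm70, chr2:32473954-32474253 (plus strand) for Mrps27, chr9:22367331-22367630 (minus strand) for Mrps18a and chr7:32028473-32028772 (minus strand) for Mrpl42. Timm8a1 holds an E-box 58 bases before the start. Timm10 holds an ETS site and an E-box 25 and 13 bases before it. Tomm70 holds an ETS site 90 bases before it. Mrps27 holds an ETS site, in reverse orientation, 47 bases before the start and a YY1 site from base 30 after it. In Mrps18a and Mrpl42 the YY1 site begins at bases 1 and 20 of the transcript. Sequences are from RefSeq.
Timm8a1: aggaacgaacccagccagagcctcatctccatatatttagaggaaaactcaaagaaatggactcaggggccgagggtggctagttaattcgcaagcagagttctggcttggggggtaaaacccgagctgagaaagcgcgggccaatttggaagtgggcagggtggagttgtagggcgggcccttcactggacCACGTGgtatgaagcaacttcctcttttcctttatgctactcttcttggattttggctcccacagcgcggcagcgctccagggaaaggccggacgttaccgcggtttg
Timm10: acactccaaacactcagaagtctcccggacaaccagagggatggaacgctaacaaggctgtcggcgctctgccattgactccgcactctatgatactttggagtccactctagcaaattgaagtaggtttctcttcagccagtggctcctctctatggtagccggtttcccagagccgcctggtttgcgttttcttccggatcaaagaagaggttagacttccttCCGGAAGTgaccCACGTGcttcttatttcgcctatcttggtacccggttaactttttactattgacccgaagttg
Tomm70: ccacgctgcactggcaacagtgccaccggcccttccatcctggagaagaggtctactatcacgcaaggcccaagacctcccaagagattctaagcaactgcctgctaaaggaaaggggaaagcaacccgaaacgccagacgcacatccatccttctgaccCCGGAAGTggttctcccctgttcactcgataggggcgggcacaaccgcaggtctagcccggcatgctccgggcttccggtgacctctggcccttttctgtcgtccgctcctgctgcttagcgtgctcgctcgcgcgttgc
Mrps27: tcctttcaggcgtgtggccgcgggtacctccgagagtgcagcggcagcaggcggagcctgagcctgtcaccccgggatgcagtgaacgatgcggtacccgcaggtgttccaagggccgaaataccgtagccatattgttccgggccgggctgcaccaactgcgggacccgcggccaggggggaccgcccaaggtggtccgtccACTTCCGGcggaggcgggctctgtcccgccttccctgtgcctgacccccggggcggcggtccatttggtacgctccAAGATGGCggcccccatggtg
Mrps18a: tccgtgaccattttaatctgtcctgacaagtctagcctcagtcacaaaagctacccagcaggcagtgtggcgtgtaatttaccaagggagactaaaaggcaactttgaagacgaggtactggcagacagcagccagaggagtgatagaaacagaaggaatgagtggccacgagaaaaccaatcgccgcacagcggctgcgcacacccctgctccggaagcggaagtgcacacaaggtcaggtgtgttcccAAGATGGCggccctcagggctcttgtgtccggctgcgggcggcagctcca
Mrpl42: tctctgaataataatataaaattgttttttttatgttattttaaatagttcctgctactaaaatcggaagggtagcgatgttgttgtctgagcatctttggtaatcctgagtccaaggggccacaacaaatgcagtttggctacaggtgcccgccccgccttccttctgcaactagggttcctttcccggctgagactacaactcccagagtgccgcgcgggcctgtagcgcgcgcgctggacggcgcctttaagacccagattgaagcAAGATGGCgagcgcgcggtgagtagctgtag

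The windows of members also often overlapped the window of a protein-coding gene on the opposite strand. This held for 16 of 71 member windows (22.5%), against 9.18% of the windows of tested genes and 5.97% of all protein-coding windows. Only 1 such pair joined 2 members: Mrpl46 and Mrps11, whose starts lie 234 bases apart, differed by -0.06 ± 0.12 and -0.22 ± 0.18 and neither passed (adjusted p = 0.716 and 0.391). Among these genes Mrps27 fell, while its partner Ptcd2 was not called, at 0.40 (adjusted p = 0.0568). The partners of Timm23 and Mrpl27 fell, namely Parg (-0.51, adjusted p = 0.0344) and Eme1 (-0.45, adjusted p = 0.0288), while Timm23 and Mrpl27 did not pass. All other partners outside the members that were tested did not pass either. Of all coding genes tested, 9.62% fell. Partners were named because their windows overlap, after their values were seen.

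**Figure D5:**
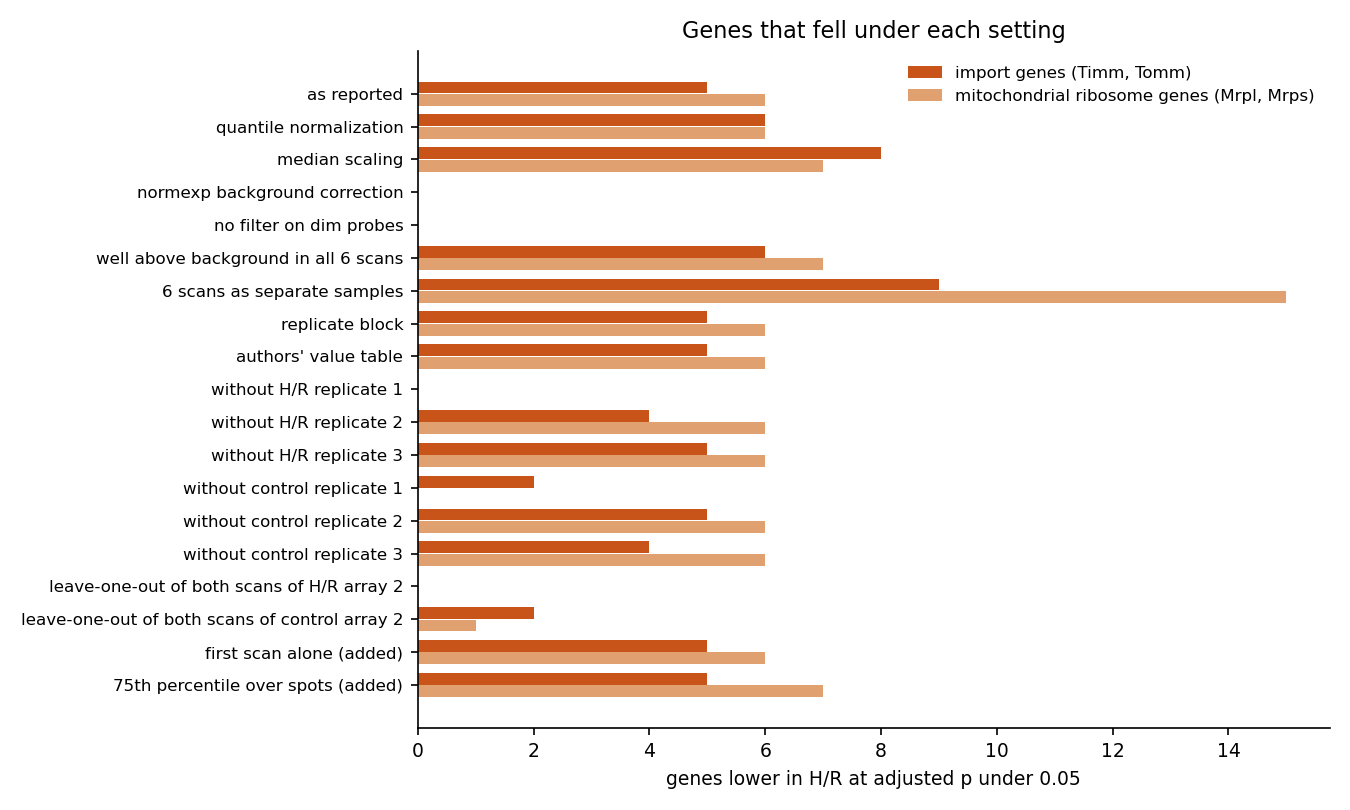
Number of import genes and of mitochondrial ribosome genes lower in H/R at an adjusted p under 0.05, under each setting. Calls over the whole array also varied, from 0 of 15899 probes after normexp correction to 8309 with the 6 scans as separate samples. The fit reported called 3769 probes. As reported the counts are 5 and 6; they are 0 and 0 after normexp correction, without the filter on dim probes and without either H/R array, and 9 and 15 when the 6 scans are counted as separate samples.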

How the data were processed

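RNA of H9c2 cells was measured on 1-colour (Cy3) Agilent arrays of an Arraystar design. rRNA was depleted and labelling was randomly primed, per the labels' protocols. A protocol text names a mouse cortex as RNA source, against every other label. The authors deposited scanner intensity values made with Agilent Feature Extraction 11.0.1.1 (named in the submitters' processing notes), with background corrected on each array and no scaling across arrays, per the file headers. Other deposited columns are spot flags, coded 0 or 1. The authors' deposited table of log2 values for 16841 probes correlated with the log2 scanner values at r of 0.9998 to 0.9999 across probes, with column medians of 9.18 to 9.19; its scale is log2, its genes are not centred and no source used here gives its normalization.

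Spots flagged as feature outliers and control spots were left out, log2 processed signals were averaged per probe, and each array's 75th percentile over probes was subtracted. Values given as multiples of the 75th percentile are this quantity on a linear scale. Of 24684 probes, 15899 were tested. H/R was set against control with limma 3.58.1 in R 4.3.3 (2 residual and 2.86 prior degrees of freedom), two-sided, with Benjamini-Hochberg adjustment at 0.05. The code was tested on simulated data. Python 3.11.15, pandas 2.3.3 and matplotlib 3.10.9 were also used. Accessions were matched without versions to the GRCr8 gene table; 14205 of 15251 coding probes received a symbol. All arrays lay on 1 slide and each group had its own positions, which cannot be told apart from the treatment; replicate 3 of both groups came from a second scan, and a refit on the first scan alone was added once the files had been seen.

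Members, lists and tests were chosen with earlier results of these data known. Named are all import genes, the ribosome genes past the threshold with the smallest adjusted p (up to 6 per subunit and direction), the 4 members of highest signal, the 2 with a change nearest 0, dim members, and list genes past the threshold. The alternatives are other scalings, background correction, dim-probe filters, scans as samples, a replicate block, the authors' table and left-out arrays. Files held no mean spot signal, so normexp (offset 50) ran on spot medians. Each member had 1 coding probe, so averaging probes was not run.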

Additional observations from a re-analysis of the deposited data

How the results depend on the processing

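The direction of the 11 members that fell was the same under every alternative run, except that Mrpl12 and Mrpl57 turned to 0.98 and 0.33 after normexp correction. Quantile normalization, the replicate block and the authors' table kept all 11 past the threshold; with the replicate block 5 import and 6 ribosome genes were lower and 0 of either were higher, and no call changed. The same-numbered arrays' deviations correlated at r = 0.153 over probes, and 2 pairs cannot show whether numbers pair samples. Median scaling gave 8 import genes lower and medians of -0.45 (import) and -0.19 (ribosome), with a median over all probes of -0.06, against 0.07 as reported. The 75th percentile over spots, chosen after seeing the data, gave a ribosome median of -0.11. Normexp, moved to spot medians after seeing the files, gave 0 and 0 lower, with 0 of 15899 probes called (2020 at an unadjusted p under 0.05) and a median over all probes of 0.335, so that changes there are to be read against that shift. Without the dim-probe filter 0 and 0 were lower, with 594 of 24578 probes called and an import median of -0.25. With the 6 scans as separate samples 9 import and 15 ribosome genes were lower and 1 and 3 higher. That fit called 8309 of 15899 probes over the whole array, beside 28 of the 74 tested members. Its import median was -0.25 and its difference of medians -0.16, and it counts 1 array as 2 samples.

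Leaving out a replicate or an array gave 0 to 5 import genes lower and 0 higher, 0 to 6 ribosome genes lower and 0 to 2 higher, import medians of -0.34 to -0.26, ribosome medians of -0.113 to -0.0232 and differences of medians of -0.31 to -0.20. Leaving out H/R replicate 1, or H/R array 2 altogether, gave counts of 0, and the ribosome count of 0 also came without control replicate 1. The ribosome genes counted as higher, seen without control array 2, were Mrpl55 and Mrps33. Mrpl55 was dim, and well above background in 3 H/R scans but only 2 control scans. It was thus tested only through the group where it is high.

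Over all 74 tested members, 58 kept their sign under median scaling and 58 under normexp, 71 with scans as separate samples, and 66 to 74 with a replicate or array left out; Mrps11, for example, was 0.012 without control replicate 1 and Mrpl2 -0.218 without H/R replicate 1. The signs that turned among the members named by rule that did not pass were these. Normexp gave -0.0892 for Mrps24, -0.018 for Timm17b, 1.01 for Timm29 and 0.093 for Tomm40. Median scaling gave -0.0010 for Mrpl13, -0.0095 for Mrps24 and -0.0528 for Timm17b. Mrpl14 was 0.0058 after quantile normalization and 0.0012 in the authors' table. With replicates or arrays left out, values ran between -0.1225 and 0.119 for Mrpl14 (5.86e-05, 0.0077 and 0.0595 among them), between -0.0734 and 0.223 for Timm17b, between -1.253 and 0.289 for Tomm40, between -0.1111 and 0.1013 for Mrpl44 and between -0.2479 and 0.0891 for Tomm7. With the first scan alone, 5 import and 6 ribosome genes were lower, with all 11 past the threshold. Among the tested members named by rule, the mean signal was lowest for Mrpl12 and Timm29, and the 8 members not tested were dimmer. The alternative that averages all coding probes of a gene was not run, since each member has 1.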
